A study of Homo sapiens with 9 samples.

Results

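The DREAM complex and its MuvB core were followed at the RNA level through 10 genes, called subunits here: LIN9, LIN37, LIN52, LIN54, RBBP4, RBL1, RBL2, E2F4, E2F5 and MYBL2. MYBL2 encodes a partner of MuvB outside DREAM. The DP subunits of DREAM, from TFDP1 and TFDP2, are not among the 10 and are given with the other partners, so counts of the 10 do not cover the whole complex. The rule lists genes by name and sets no threshold on a measured value. The list was chosen with earlier results of these data known, so counts of the 10 are not an independent test. All 10 were among the 60662 genes of the count table and passed the filter on low counts in every comparison. Bulk RNA-seq had been done on untreated SET2 cells, an established line labelled as acute myeloid leukaemia that followed a myeloproliferative neoplasm. There were 3 libraries of unedited cells (WT) and 3 from each of the DYRK1A KO clones 11H1 and 14B5. Each KO clone had been grown from 1 Cas9-edited cell and kept for carrying only frameshifting indels in DYRK1A, so that libraries of a clone are replicates of that clone and not of independent edits. No label says whether replicates were separate cultures, and the p values therefore measure the spread between these libraries, which may be technical.

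MuvB is a core of LIN9, LIN37, LIN52, LIN54 and RBBP4 that changes partners through the cell cycle. In quiescent cells it joins a pocket protein (RBL1, known as p107, or RBL2, known as p130) and an E2F4 or E2F5 heterodimer with a DP protein to form DREAM, which represses cell cycle genes, and in cycling cells it leaves these partners and binds B-MYB (MYBL2) and later FOXM1 to activate genes of mitosis. DYRK1A is the kinase that phosphorylates LIN52, the step through which MuvB takes up the pocket protein, so the comparison of WT and KO cells addresses how the RNA of the complex stood when that kinase was lost.

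E2F complexes and LIN54 read different letters in promoters, and the stretches in which such letters lie are shown for the subunits the results turn on. RefSeq promoter windows (GRCh38.p14, 250 bases before to 50 bases after a start) were at hand for 9 of the 10 genes, all but E2F5. They were searched on both strands for the E2F motifs TTTCCCGC, TTTCGCGC, TTTGCCGC and TTTGGCGC and for the cell cycle homology region (CHR) motifs TTTGAA and TTTAAA, with no overlap between the sets. The 9 genes have 15 windows, 1 for each RefSeq start. An E2F motif stood in 2 of the 15, those of RBL1 and LIN52, beside 3.31% of 35116 RefSeq windows. A CHR motif stood in 6 of the 15, beside 23.99% of all windows. The 6 were of LIN9 (1 of its 3), LIN37 (1 of its 2), LIN54 and RBL2 (both of each). The 2 windows of LIN54 overlap and hold the same site. By gene, a CHR motif stood in 4 of the 9. The windows of E2F4, MYBL2 and RBBP4 held no exact copy of either kind. Variants of these letters were not counted, so such a window may still hold one. RBL1 held 2 E2F motifs, at bases -26 to -19 and -16 to -9 from its start, within chr20:37095998-37096247 on the minus strand, where GENCODE v29 also annotates an exon of the antisense RNA AL136172.1 on the plus strand. LIN52 held one at -25 to -18, shown within 30 bases (chr14:74084923-74084952, plus strand) that GENCODE v29 places in its 5' untranslated region. LIN54 held a CHR motif at -100 to -95 (chr4:83010830-83011073, minus strand), in an intron of its longer transcripts. E2F4 (chr16:67191905-67192154, plus strand) is shown as a subunit whose RNA rose in both clones with none of these letters in its window. Capitals mark the motifs, which describe the letters only and are not evidence of binding.
RBL1: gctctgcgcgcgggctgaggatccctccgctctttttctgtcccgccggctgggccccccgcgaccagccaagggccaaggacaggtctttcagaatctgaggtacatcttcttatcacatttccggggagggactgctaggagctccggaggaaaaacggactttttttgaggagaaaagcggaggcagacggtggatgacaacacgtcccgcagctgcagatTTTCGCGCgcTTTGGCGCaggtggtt
LIN52: aacctcgtTTTCCCGCcgacggttggccac
LIN54: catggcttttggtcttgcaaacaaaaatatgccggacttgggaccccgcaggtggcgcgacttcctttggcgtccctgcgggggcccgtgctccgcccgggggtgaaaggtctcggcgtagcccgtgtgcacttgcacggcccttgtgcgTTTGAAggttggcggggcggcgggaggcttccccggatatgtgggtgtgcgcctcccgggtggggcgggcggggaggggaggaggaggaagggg
E2F4: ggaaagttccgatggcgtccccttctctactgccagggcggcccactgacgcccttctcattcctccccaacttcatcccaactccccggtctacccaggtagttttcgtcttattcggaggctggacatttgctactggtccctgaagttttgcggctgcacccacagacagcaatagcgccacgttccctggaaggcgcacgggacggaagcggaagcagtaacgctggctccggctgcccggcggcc

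The libraries held 32347779 to 60272245 expected counts, and the lowest count of any subunit in any library was 454, for LIN37 in 11H1. The megakaryocytic and erythroid identity of the cells was present, with ITGA2B (the platelet integrin αIIb) at 919 ± 8.23 and GATA1 at 274 ± 6.55 CPM in WT (SD, n = 3), where CPM give counts relative to the scaled library size. The summed level of the 6 megakaryocyte markers was 1330 to 1342 CPM in WT, 942 to 1001 in 11H1 and 928 to 968 in 14B5, and all 6 fell in 11H1 and 5 of 6 in 14B5 (edgeR, adjusted p below the threshold of 0.05), with PF4 at 0 in every KO library. The 5 erythroid markers summed to 11536 to 13223, 10184 to 11122 and 12670 to 14295 CPM. The 5 markers of lymphocytes, monocytes and epithelium summed to less than 0.875 CPM in every library, with MS4A1 at 0 in both clones. The share of mitochondrially encoded RNA was 3.54 to 6.03% in WT, with WT 1 the highest, against 7.23 to 7.39% in 11H1 and 3.30 to 3.92% in 14B5. The part of these differences in the subunit results was not tested, but with mitochondrial genes left out the numbers of subunits called higher or lower were the same in all 4 comparisons.

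DYRK1A RNA was checked first. It stood at 197, 196 and 218 CPM in WT, at 188, 191 and 192 in 11H1 and at 191, 182 and 174 in 14B5. All 3 values of each clone lay below those of WT, by little. The log2 fold change was -0.09 ± 0.05 (SE) in 11H1 (adjusted p = 0.131, edgeR) and -0.17 ± 0.06 in 14B5 (adjusted p = 0.0278), a call that was lost without WT 3, 14B5 2 or 14B5 3 (adjusted p = 0.103 to 0.138) and with no filter on low counts (adjusted p = 0.0720). A frameshift need not lower the RNA of a gene, so its level does not check the KO labels.

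Of the 10 subunit RNAs, 5 rose in both KO clones: LIN9, LIN54, RBL1, E2F4 and MYBL2. In 11H1 versus WT, 5 were higher and 1, RBL2, was lower at an adjusted p below 0.05 (edgeR quasi-likelihood test), where 64.6% of 16675 tested genes were called, 31.8% higher and 32.8% lower. In 14B5 versus WT, 7 were higher and 0 lower (edgeR), where 53.5% of 16537 genes were called, 24.9% higher and 28.7% lower, and LIN52 and RBBP4 were the ones added. Of all 16339 genes tested against WT in each clone, 33.3% were called in the same direction in both, 14.1% higher and 19.2% lower. The libraries did not overlap for 8 subunits in 11H1 versus WT (6 higher, 2 lower) and for 7 in 14B5 versus WT (all higher), beside 68.7% and 60.9% of all tested genes. The median log2 fold change of the 10 was 0.24 in 11H1 and 0.32 in 14B5, beside medians of -0.01 over all tested genes in each clone. The clones share the WT libraries, so their agreement is not 2 independent comparisons. In bulk RNA, a larger share of cells that hold an RNA and more of it per cell cannot be told apart.

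**Figure D1:**
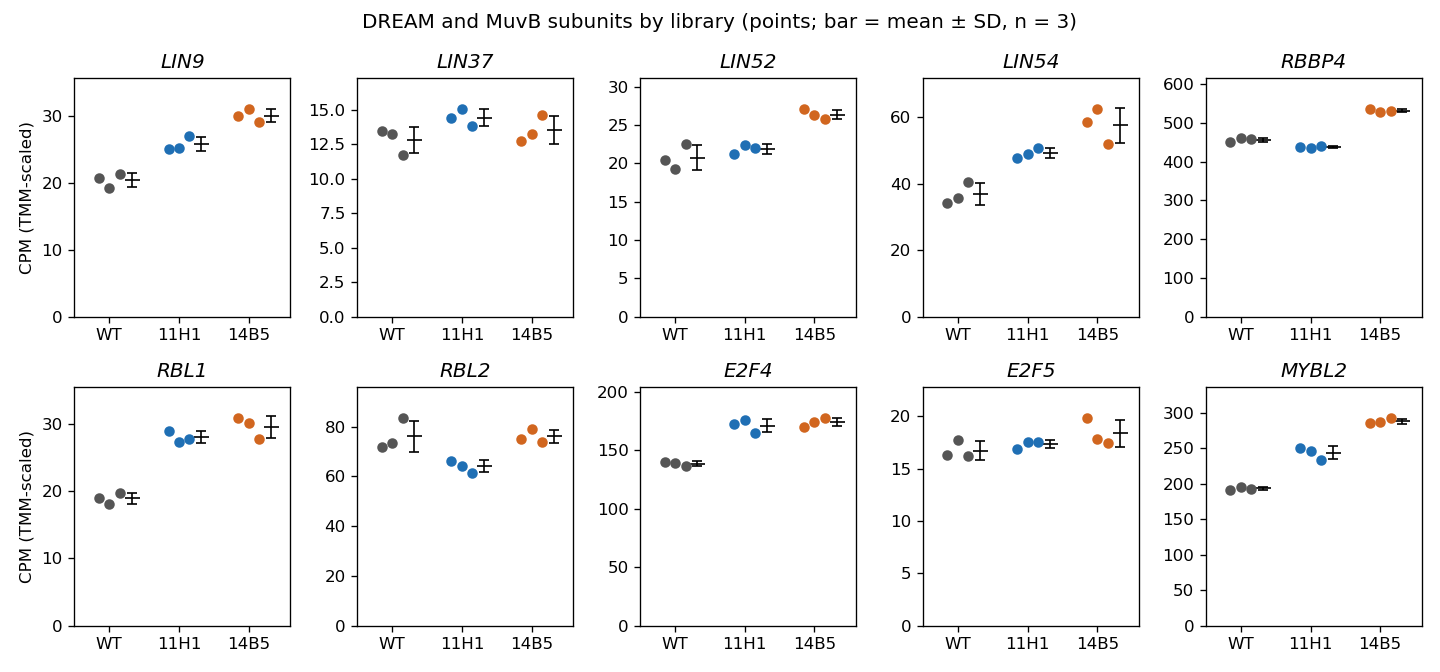
Level of each of the 10 subunit RNAs in CPM on the scaled library size, 1 panel per gene with its own axis from 0, by group (WT, 11H1, 14B5), with each library a point and the mean ± SD beside it. All KO libraries lie above all WT libraries for LIN9, LIN54, RBL1, E2F4 and MYBL2, and RBL2 lies below WT in 11H1 only, at 61.5 to 66.3 against 71.8 to 83.3 CPM.

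Of the MuvB core, LIN9 and LIN54 rose in both clones, and LIN52 and RBBP4 rose in 14B5. LIN9, the scaffold on which MuvB is built, was at 20.8, 19.3 and 21.4 CPM in WT, at 25.2, 25.3 and 27.1 in 11H1 and at 30.1, 31.0 and 29.1 in 14B5. The groups were fully separate and 14B5 was the highest. Its log2 fold change against WT was 0.34 ± 0.06 in 11H1 (adjusted p = 0.000362, edgeR) and 0.54 ± 0.06 in 14B5 (adjusted p = 2.83e-05), and 11H1 was lower than 14B5 by -0.21 ± 0.05 (adjusted p = 0.00316). LIN54, the subunit that binds CHR motifs in DNA, was at 34.2, 35.7 and 40.6 CPM in WT, at 47.8, 48.8 and 50.8 in 11H1 and at 58.5, 62.3 and 51.9 in 14B5. It showed the same order of groups, with more spread within 14B5. The log2 fold change of LIN54 was 0.42 ± 0.06 in 11H1 (adjusted p = 8.7e-05, edgeR) and 0.63 ± 0.08 in 14B5 (adjusted p = 0.000103). THAP9, which overlaps LIN54 on the opposite strand without sharing exon bases, did not rise, with log2 fold changes of -0.20 and -0.08.

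LIN52, the subunit that DYRK1A phosphorylates, differed from WT in 14B5 and not past the threshold in 11H1. Its level was 20.5, 19.2 and 22.5 CPM in WT, 21.2, 22.4 and 22.0 in 11H1, and 27.0, 26.3 and 25.8 in 14B5. The 11H1 values fell within the range of WT, and every 14B5 value lay above both. The log2 fold change was 0.08 ± 0.07 in 11H1 (adjusted p = 0.286, edgeR) and rose to 0.33 ± 0.06 for 14B5 (adjusted p = 0.00150), while 11H1 was below 14B5 by -0.27 ± 0.05 (adjusted p = 0.000644). RBBP4, a histone-binding protein that also serves other chromatin complexes, was at 451, 461 and 459 CPM in WT, 437, 435 and 440 in 11H1 and 535, 528 and 531 in 14B5. It was thus slightly below WT in 11H1 (-0.06 ± 0.04, adjusted p = 0.257, edgeR) and above it in 14B5 (0.20 ± 0.04, adjusted p = 0.00259), with the clones apart by -0.27 ± 0.04 (adjusted p = 5.14e-05). The near-identical pseudogene RBBP4P1 was at 5.68 ± 0.28 CPM in WT, and reads shared between the 2 may have been divided by RSEM in either direction. LIN37, needed for repression by the complex, was at 13.5, 13.2 and 11.8 CPM in WT, 14.4, 15.04 and 13.8 in 11H1 and 12.7, 13.2 and 14.7 in 14B5. Its 11H1 libraries lay above WT, but neither the 0.17 ± 0.08 of 11H1 (adjusted p = 0.0637, edgeR) nor the 0.06 ± 0.08 of 14B5 (adjusted p = 0.555) passed. LIN37 shares 752 exon bases with a gene of the same strand, AD000671.1, whose median count was 8.

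The pocket proteins differed, with RBL1 higher in both clones and RBL2 lower in 11H1. RBL1 showed the largest log2 fold change of the 10 in 11H1 and, with LIN54, one of the 2 largest in 14B5. It was at 19.0, 18.1 and 19.7 CPM in WT, 28.97, 27.2 and 27.7 in 11H1 and 30.8, 30.2 and 27.7 in 14B5. The clones overlapped each other and stood well clear of WT, with log2 fold changes of 0.57 ± 0.06 (adjusted p = 4.41e-06, edgeR) and 0.63 ± 0.06 (adjusted p = 1.63e-05), 1.49- and 1.54-fold. RBL2, the pocket protein best known from quiescent cells, was at 71.8, 73.5 and 83.3 CPM in WT, 66.3, 64.3 and 61.5 in 11H1 and 75.1, 79.0 and 74.0 in 14B5. It fell in 11H1, by 0.24 ± 0.06 on the log2 scale (adjusted p = 0.00384, edgeR), while 14B5 lay inside the range of WT (-0.02 ± 0.06, adjusted p = 0.820). The 11H1 level of RBL2 was also below that of 14B5 (-0.24 ± 0.05, adjusted p = 0.000877). WT 3 was the highest RBL2 library.

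**Figure D2:**
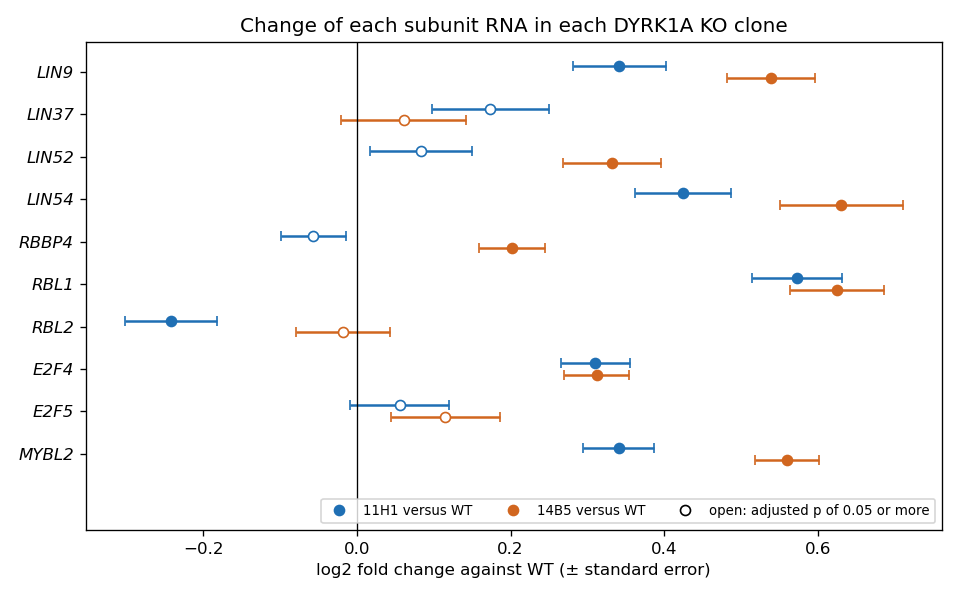
Log2 fold change of each subunit RNA in 11H1 versus WT and in 14B5 versus WT (edgeR; points, with bars of ± 1 standard error), where filled points have an adjusted p below 0.05. RBL1 and E2F4 lie at nearly the same value in both clones, and 14B5 lies to the right of 11H1 for LIN9, LIN52, LIN54, RBBP4, RBL2 and MYBL2.

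Of the E2F subunits, E2F4 rose in both clones and E2F5 did not pass in either. E2F4, the repressor E2F that makes up most of the E2F in DREAM, was at 140, 140 and 136 CPM in WT, 172, 176 and 165 in 11H1 and 170, 174 and 177 in 14B5. It rose by 0.31 ± 0.04 in each clone (adjusted p = 7.48e-05 and 0.000169, edgeR), 1.24-fold, and the clones did not differ past the threshold (-0.02 ± 0.04, adjusted p = 0.741). E2F5 was at 16.3, 17.7 and 16.2 CPM in WT, 16.9, 17.5 and 17.6 in 11H1 and 19.8, 17.9 and 17.4 in 14B5, with overlapping groups and log2 fold changes of 0.06 ± 0.06 and 0.12 ± 0.07 (adjusted p = 0.470 and 0.197, edgeR). E2F5 shares 969 exon bases with RBIS (C8orf59) on the opposite strand, whose level was higher, at 41.6 ± 9.85 CPM in WT, and the strand setting of the counting is not given in the sources used here. The value of E2F5 is therefore uncertain.

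MYBL2, the B-MYB that takes over MuvB in cycling cells, rose in both clones. Its level was 192, 196 and 193 CPM in WT, 251, 247 and 234 in 11H1 and 286, 287 and 292 in 14B5. The 3 groups did not overlap, and 14B5 stood highest. The log2 fold change was 0.34 ± 0.05 in 11H1 (adjusted p = 4.3e-05, edgeR) and 0.56 ± 0.04 in 14B5 (adjusted p = 2.34e-06), with 11H1 below 14B5 by -0.23 ± 0.04 (adjusted p = 0.000485).

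Where the clones were compared directly, 14B5 had the higher level of 6 of the 10 subunits and 11H1 of 0 (edgeR), where 63.7% of 16352 tested genes differed, 32.1% with the lower and 31.6% with the higher level in 11H1. The 6 were LIN9, LIN52, LIN54, RBBP4, RBL2 and MYBL2, and their libraries did not overlap between the clones, as was so for 68.7% of all tested genes. The median of the 10 was -0.22, beside -0.0044 for all genes. LIN37, RBL1, E2F4 and E2F5 did not differ past the threshold. With both clones joined as KO (n = 6) against WT, 5 subunits were higher and 0 lower (edgeR), where 32% of 17080 genes were called, 14.3% higher and 17.7% lower, and the libraries of 36.6% did not overlap. The 5 were those that rose in each clone, and their KO and WT libraries did not overlap. Their log2 fold changes were 0.45 ± 0.09 for LIN9, 0.54 ± 0.10 for LIN54, 0.60 ± 0.07 for RBL1, 0.32 ± 0.05 for E2F4 and 0.46 ± 0.08 for MYBL2. LIN52, at 0.22 ± 0.10, did not pass (adjusted p = 0.119, edgeR). The joined fit treated the 6 libraries of 11H1 and 14B5 as separate. Its calls and standard errors therefore do not measure the spread between independent edits.

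The balance of alternative partners was compared as a ratio within each library, after division by the length of the exons. The RBL1 to RBL2 ratio was 0.326, 0.303 and 0.291 in WT, 0.537, 0.521 and 0.555 in 11H1 and 0.504, 0.469 and 0.461 in 14B5. RBL2 RNA thus exceeded RBL1 RNA in every library, by less in KO cells. The ratio was 1.76-fold that of WT in 11H1 (log2 difference 0.81 ± 0.05) and 1.56-fold in 14B5 (0.64 ± 0.06), and it was higher in 11H1 than in 14B5 in all libraries (0.17 ± 0.05). The E2F4 to E2F5 ratio was 14.2, 13.0 and 13.9 in WT, 16.9, 16.6 and 15.6 in 11H1 and 14.2, 16.1 and 16.9 in 14B5. It was higher in both clones by 0.25 ± 0.05 and 0.19 ± 0.08 on the log2 scale, although 14B5 1 barely cleared the highest WT library, and it rests on E2F5, whose counts are uncertain as above. The MYBL2 to RBL2 ratio, of an activating partner of MuvB to 1 of its 2 pocket proteins, was 7.04, 7.02 and 6.10 in WT, 9.97, 10.1 and 10.02 in 11H1 and 10.03, 9.56 and 10.4 in 14B5. It was 1.497- and 1.491-fold that of WT, and the clones were within their spread of each other (log2 difference 0.01 ± 0.04). RBL1, the other pocket protein, had log2 fold changes of 0.57 ± 0.06 and 0.63 ± 0.06, against 0.34 ± 0.05 and 0.56 ± 0.04 for MYBL2 (edgeR). The ratio of MYBL2 to RBL1 was not computed, so the rise shown is relative to RBL2 only. Each clone was above WT without overlap in all 3 ratios, for which a 2-sided exact permutation test gave p = 0.1 in each, the smallest that 3 libraries against 3 allow, and p = 0.0238 for the 6 KO libraries against 3, also the smallest. The p of 0.1 does not pass 0.05, which 3 libraries against 3 cannot reach. The 6 KO libraries come from clones 11H1 and 14B5 only. The p of 0.0238 therefore treats libraries of a clone as separate and does not measure the spread between independent edits.

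**Figure D3:**
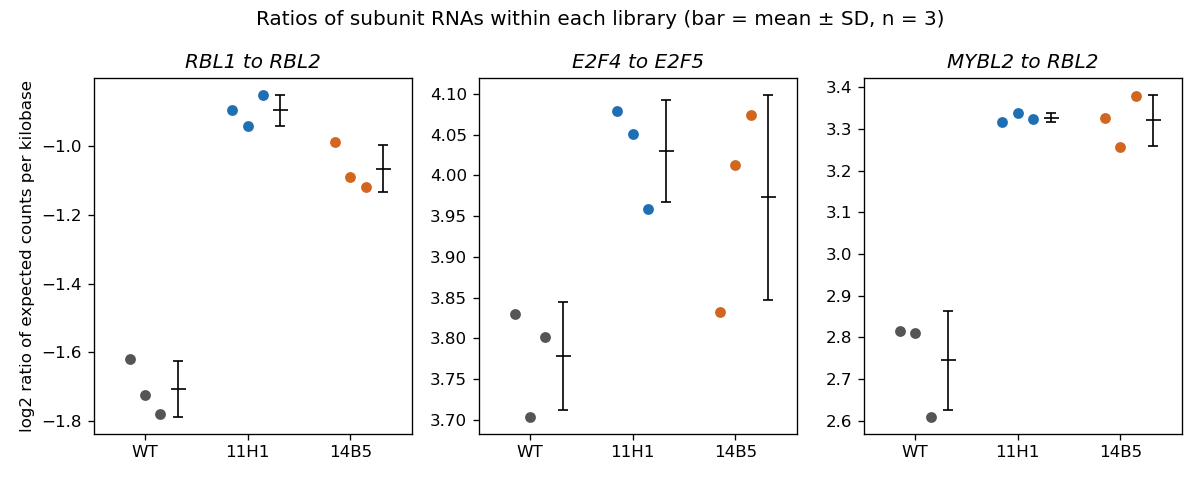
Log2 ratio of expected counts per kilobase of exon of RBL1 to RBL2, E2F4 to E2F5 and MYBL2 to RBL2 in each library (points), with the mean ± SD (n = 3) of WT, 11H1 and 14B5 beside them; the axes do not start at 0. RBL1 to RBL2 runs from -1.78 to -1.62 in WT and from -1.12 to -0.85 in the clones.

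Per kilobase of exon, the subunit RNAs spanned a wide range in WT. MYBL2 was the highest at 69.6 ± 0.77 CPM per kilobase (SD, n = 3), followed by RBBP4 at 48.2 ± 0.55, E2F4 at 38.7 ± 0.53 and RBL2 at 10.4 ± 0.85. The other MuvB subunits lay lower, LIN52 at 5.61 ± 0.44, LIN54 at 5.44 ± 0.49, LIN9 at 4.61 ± 0.24 and LIN37 at 4.55 ± 0.33, ahead of RBL1 at 3.18 ± 0.14 and E2F5 at 2.82 ± 0.15. In this order the libraries of LIN52 and LIN54 overlapped, as did those of LIN9 and LIN37, and all other neighbours were separate. LIN52 and LIN54 were separate in both clones, where LIN54 stood above LIN52, at 7.26 ± 0.22 against 5.92 ± 0.17 in 11H1 and 8.51 ± 0.77 against 7.14 ± 0.17 in 14B5. MYBL2 remained the highest, at 87.8 ± 3.19 in 11H1 and 104 ± 1.23 in 14B5, and E2F5 the lowest. The exon union counts every annotated exon, including those that SET2 cells may not use, so a level per kilobase is approximate.

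Among the 5 other proteins that join or replace these subunits, FOXM1 rose in both clones. FOXM1, the transcription factor that follows B-MYB on MuvB in late G2, was at 102, 102 and 106 CPM in WT, 172, 167 and 159 in 11H1 and 156, 160 and 154 in 14B5. Its log2 fold change was 0.70 ± 0.05 and 0.59 ± 0.04 (adjusted p = 1.67e-07 and 2.09e-06, edgeR), and that of 11H1 was above every subunit's. TFDP1, the main DP partner of the E2Fs, was at 74.0, 76.0 and 77.1 CPM in WT, 69.4, 73.8 and 68.3 in 11H1 and 92.4, 90.5 and 91.4 in 14B5, so that it rose past the threshold in 14B5 (0.26 ± 0.04, adjusted p = 0.000611, edgeR) while 11H1 stood below 14B5 at -0.37 ± 0.04 (adjusted p = 1.94e-05). RBBP7, the close relative of RBBP4, rose in 14B5 as RBBP4 did (0.32 ± 0.04, adjusted p = 0.000204, edgeR), while in 11H1, where RBBP4 lay below WT, it was at 0.08 ± 0.04 (adjusted p = 0.108). TFDP2 was lower in 14B5 (-0.16 ± 0.04, adjusted p = 0.0107, edgeR), a call lost without 14B5 1 (adjusted p = 0.0656) and with no filter on low counts (adjusted p = 0.0775). MYBL1, or A-MYB, was near the limit of detection at 0.29 ± 0.03 CPM in WT.

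Of 12 genes for kinases, cyclins and inhibitors that act on the complex, 4 rose and 3 fell in both clones (edgeR), beside 14.1% and 19.2% of all genes tested in both. CDKN1A (p21), which holds cyclin-dependent kinases off the pocket proteins, rose most, from 7.11 ± 0.33 CPM in WT to 30.3 ± 1.19 in 11H1 and 22.4 ± 1.10 in 14B5 (SD, n = 3), a log2 fold change of 2.10 ± 0.07 and 1.64 ± 0.07 (adjusted p = 4.16e-10 and 4.24e-08, edgeR). CDKN1B (p27), of the same family, rose by 0.34 ± 0.05 and 0.71 ± 0.06 on the log2 scale (adjusted p = 6.69e-05 and 4.76e-06, edgeR). CDK2, a kinase of the pocket proteins, rose by 0.40 ± 0.04 and 0.47 ± 0.04, and its partner CCNE2 (cyclin E2) by 0.44 ± 0.07 and 0.41 ± 0.07. Its other partner CCNE1 (cyclin E1) fell, by 0.61 ± 0.06 and 0.40 ± 0.06. Of the D cyclins, CCND3 and CCND1, which open the phosphorylation of pocket proteins, fell in both clones, by 0.20 ± 0.05 and 0.33 ± 0.05 for CCND3 and by 0.24 ± 0.09 and 0.44 ± 0.10 for CCND1. The 11H1 call of CCND1 was lost without WT 2, WT 3, 11H1 1 or 11H1 3 (adjusted p = 0.0649 to 0.131, edgeR) and with DESeq2 (adjusted p = 0.0842). The third D cyclin of the list, CCND2, named after its values were seen, was higher in 11H1 (0.27 ± 0.06, adjusted p = 0.00234, edgeR) and at 0.23 ± 0.10 in 14B5 (adjusted p = 0.0844).

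Listed genes that DREAM is known to bind were mostly higher in both clones. The lists were chosen with earlier results of these data known, so their counts are not an independent test. Of 20 genes of G1/S with E2F sites, 16 were higher and 1 lower in 11H1 and 18 higher and 1 lower in 14B5 (edgeR), and 15 were higher in both. Of all tested genes, 31.8% were higher in 11H1, 24.9% in 14B5 and 14.1% in both. Of 20 genes of G2/M with CHR sites, 19 were tested, and 14 were higher and 2 lower in 11H1 and 13 higher and 1 lower in 14B5, with 12 higher in both. KIF23 was not analysed here. The median log2 fold changes were 0.25 and 0.40 for the E2F-site genes and 0.22 and 0.33 for the CHR-site genes, near the 0.24 and 0.32 of the subunits. Among the E2F-site genes with the largest mean rise were GINS2 (the replicative helicase, 0.36 ± 0.06 and 0.71 ± 0.06) and MCM10 (origin firing, 0.52 ± 0.05 in both). The CHR-site genes were UBE2C, which serves the anaphase-promoting complex (0.56 ± 0.05 and 0.74 ± 0.05), the mitotic kinase NEK2 (0.16 ± 0.06 and 0.63 ± 0.06) and CDK1, the kinase of mitotic entry (0.23 ± 0.04 and 0.54 ± 0.05). The 11H1 call of NEK2 was lost without WT 1, 11H1 1 or 11H1 3 (adjusted p = 0.0690 to 0.141, edgeR) and with no filter on low counts (adjusted p = 0.0538). MCM6, of the replicative helicase, fell by 0.55 ± 0.05 and 0.29 ± 0.05, and the checkpoint kinase BUB1 fell by 0.91 ± 0.06 and 0.60 ± 0.07. As with the subunits, most of these genes stood lower in 11H1 when the clones were compared, 13 of 20 and 12 of 19, with 2 and 1 higher (edgeR), beside 32.1% lower and 31.6% higher of all tested genes.

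**Figure D4:**
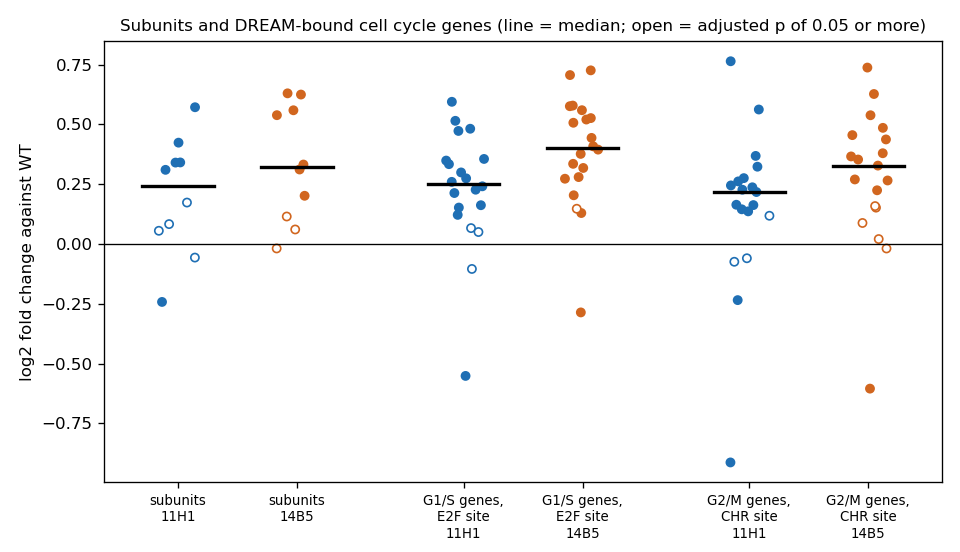
Log2 fold change against WT (edgeR) of the 10 subunits, of 20 G1/S genes with E2F sites and of 19 G2/M genes with CHR sites, in 11H1 (blue) and 14B5 (orange), with each gene a point, filled where the adjusted p is below 0.05, and the median a line; horizontal position within a column is arbitrary. The medians lie between 0.22 and 0.40 in all 6 columns, and the lowest points are MCM6 in the E2F-site columns and BUB1 in the CHR-site columns.

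To show how the surroundings of each subunit gene moved, it was set beside the tested genes within 5 Mb of its start (coordinates of GENCODE v29, GRCh38). RBL1 (chr20:36996349-37095995) rose where the median of 92 neighbours in 11H1 was 0.04 and of 91 in 14B5 was -0.06. LIN54 (chr4:82909973-83012926) rose where its neighbours had medians of -0.18 (43 genes) and -0.02 (42 genes). LIN9 (chr1:226231149-226309869) had neighbours at 0.05 and 0.11. MYBL2 (chr20:43667019-43716496) had neighbours at 0.12 in 11H1 and -0.02 in 14B5, against 0.34 and 0.56 for the gene. Of the subunits that rose in both clones, E2F4 (chr16:67192169-67198918) had the smallest excess over its neighbours. It stood 0.13 above their median of 0.18 in 11H1 and 0.24 above 0.07 in 14B5. LIN37 (chr19:35748361-35754519) stood 0.03 above the median of its 188 neighbours in 11H1, and RBL2 (chr16:53433977-53491649) fell in 11H1 by 0.17 more than the median of its 66 neighbours. The 2 target genes that fell in both clones lie on chromosome 2 among neighbours that were also lower, with medians of -0.50 and -0.55 around MCM6 and -0.61 and -0.61 around BUB1. The part of the region in these changes was not tested.

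**Figure D5:**
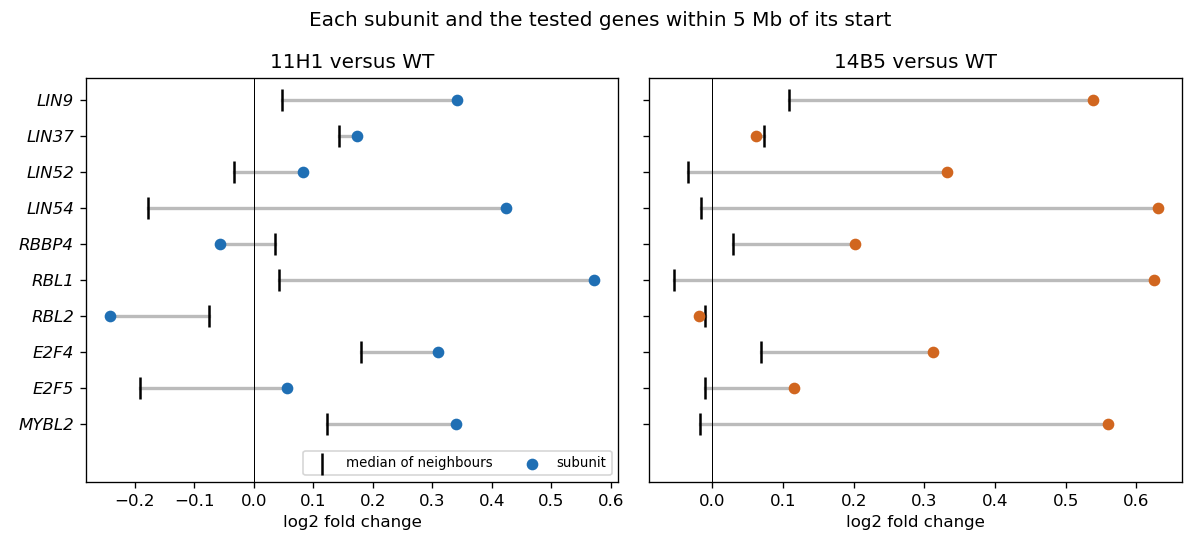
For each subunit, its log2 fold change against WT (point) and the median log2 fold change of the tested genes within 5 Mb of its start (vertical tick), in 11H1 and in 14B5. The points of LIN9, LIN54, RBL1 and MYBL2 lie 0.22 to 0.68 to the right of their neighbours' median in both clones.

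The pattern of LIN52 and RBL1 over the 9 libraries was compared with every other tested gene, as a description only, since the libraries fall into 3 groups and share the scaling. The genes most like RBL1 were HTATSF1 (r = 0.998, Pearson, log2 CPM), MMS22L (r = 0.995) and FAM111B (r = 0.994), and the last went from 15.9 CPM in WT to 41.6 in 11H1 and 45.6 in 14B5. The genes most like LIN52 were MAPRE1 (r = 0.985), ZCCHC24 (r = 0.985) and SPPL3 (r = 0.980), each highest in 14B5. Among the subunits, RBL1 was most like E2F4 (r = 0.950), LIN54 (r = 0.943) and LIN9 (r = 0.942) and least like RBL2 (r = -0.30), and LIN52 was most like LIN9 (r = 0.883) and least like LIN37 (r = -0.07).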

How the data were processed

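The series holds 9 RNA-seq libraries of SET2 cells: WT, 11H1 and 14B5 (n = 3 each). The table that the authors deposited gives RSEM expected counts, with reads that match several genes divided among them and no normalization. Per the labels' processing notes, STAR 2.7.9a, Picard, RSEM and GRCh38 were used, while the annotation release and strand setting are not given in the sources used here. The labels and the paper name different library kits (SMARTER and TruSeq Stranded mRNA). Of 60754 entries, 92 spike-ins were at 0 and left out, and 58587 of 60662 genes (96.6%) were placed on GENCODE v29.

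After rounding, the counts went into edgeR 4.0.16 (R 4.3.3, TMM, filterByExpr for the groups compared, quasi-likelihood F test, Benjamini-Hochberg adjustment over all genes tested, threshold 0.05). The procedure was tested on simulated data with fewer changed genes than were called here and larger changes than those of the subunits. The simulated spread between libraries was smaller than that of KO versus WT and, by less, than that of 14B5 versus WT, so those settings were not tested. Each p in the text is adjusted unless it is named an exact p. Levels are given as CPM of the TMM-scaled library size, divided by exon union length where given per kilobase, and log2 CPM used a prior count of 2. Ratios were tested with a 2-sided exact permutation test (scipy 1.17.1). Alternatives were DESeq2 1.42.0, its size factors, no filter, no mitochondrial genes, a fit of 3 groups, a replicate block, other windows and leaving out each library. The members and lists, written from general knowledge, were chosen with earlier results of these data known. Genes named were the members, DYRK1A, 5 partners, kinases and cyclins called in the same direction in both clones, the 3 largest rises and falls of each target list called in both, paralogs or overlapping genes of members, and the 3 genes most like LIN52 and RBL1. Not every such target is given in the text. THAP9 and RBIS were named after their values were seen. Library totals of 32347779 to 60272245 put a floor of 3 counts at 0.0927 CPM or less, for counting error only. No within-group pair of libraries agreed within sampling noise.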

Additional observations from a re-analysis of the deposited data

Results flagged for a closer look

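Of 30 named genes, 18 differed between the clones by the edgeR test of 11H1 versus 14B5 itself, 6 of the 10 subunits among them, beside 63.7% of all tested genes. For the subunits, the log2 difference of 11H1 from 14B5 was -0.21 for LIN9, -0.27 for LIN52, -0.22 for LIN54, -0.27 for RBBP4, -0.24 for RBL2 and -0.23 for MYBL2. For the partners it was -0.37 for TFDP1, 0.17 for TFDP2 and -0.25 for RBBP7. For cyclins and inhibitors it was -0.23 for CCNE1, 0.44 for CDKN1A and -0.39 for CDKN1B. For DREAM-bound genes it was -0.37 for GINS2, -0.28 for MCM6, -0.19 for UBE2C, -0.48 for NEK2, -0.33 for CDK1 and -0.32 for BUB1. CDKN1A and TFDP2 were the genes higher in 11H1. The mitochondrial share also differed between the clones, at 7.23 to 7.39% in 11H1 and 3.30 to 3.92% in 14B5, and its part was not tested.

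Among the 6 KO libraries, E2F5 was highest in 14B5 1, at 19.8 CPM, farther from the others than Dixon's 95% limit. It was 1 of 60 such tests, of which chance gives about 1 in 20.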

How the results depend on the processing

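The 5 subunits that rose in both clones kept the direction and the call under every alternative run. Over the 10 subunits and 4 comparisons, 501 of the alternatives gave the same call, 4 added one and 5 turned the sign of an uncalled value. In the fit of 3 groups, which takes the spread within clones, KO versus WT had 1 subunit lower (RBL2, -0.13) in place of 0, LIN52 and RBBP4 were also higher, and 10245 genes were called in place of 5471. With no filter, signs of uncalled log2 fold changes turned for RBL2 in 14B5 versus WT (0.018), TFDP2 in 11H1 versus WT (-0.0013) and CCNE2 in 11H1 versus 14B5 (-0.013). With 1 library left out, the sign turned over ranges of -0.057 to 0.065 for RBL2 in 14B5 versus WT, -0.0051 to 0.048 for TFDP2 in 11H1 versus WT, -0.077 to 0.47 and -0.21 to 0.051 for MYBL1 in 11H1 and KO versus WT, and between the clones -0.028 to 0.035 for CCNE2, -0.057 to 0.014 for MCM10 and -0.039 to 0.00055 for E2F4. The cause was not tested.

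Same-numbered libraries did not vary together (correlations of -0.145 to 0.058), so the numbers do not pair them. With a replicate block, 6 subunits were higher in 11H1 (LIN37 added, adjusted p = 0.0482), 7 in 14B5 and 5 in KO, the 14B5 calls of DYRK1A (adjusted p = 0.0824) and TFDP2 (adjusted p = 0.0569) were lost, and all genes called numbered 10710, 7529, 10099 and 3937 in 11H1, 14B5, 11H1 versus 14B5 and KO.

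With 1 library left out, the log2 ratio in KO versus WT ran from 0.69 to 0.77 for RBL1 to RBL2, 0.19 to 0.26 for E2F4 to E2F5 and 0.51 to 0.61 for MYBL2 to RBL2, where 6 libraries against 2 cannot go below the exact p of 0.0714. MYBL2 to RBL2 ran from 0.51 to 0.62 in 11H1, 0.51 to 0.61 in 14B5 and -0.026 to 0.035 between the clones, and E2F4 to E2F5 from -0.014 to 0.11 between the clones. Without division by length, the WT log2 ratios were -2.01, 3.05 and 1.35. The median of the 10 subunits' neighbour medians was -0.0057, 0.028 and -0.019 within 2 Mb in 11H1, 14B5 and 11H1 versus 14B5. In the same order it was 0.00018, 0.020 and 0.0019 within 10 Mb, beside 0.039, -0.011 and 0.019 within 5 Mb.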
